A study of Mus musculus with 12 samples.

Results

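The genes described here are NRF2 and the oxidative stress defense genes around it, 10 of the 21960 genes listed for each tumor. They were chosen by symbol for their roles: the transcription factor Nfe2l2 (which encodes NRF2), the cystine carrier subunit Slc7a11, the glutathione synthesis genes Gclc and Gclm, the glutathione peroxidases Gpx4 and Gpx2, the thioredoxin and peroxiredoxin genes Txnrd1, Prdx1 and Srxn1, and the heme-degrading enzyme Hmox1. All 10 were found, each as 1 protein-coding gene of the GENCODE vM21 annotation of GRCm38.

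RNA was sequenced from 12 mammary tumors of female C57BL/6 mice that carried the polyoma middle T oncogene (PyMT) under the MMTV promoter, 3 tumors in each of 4 groups. The groups received the control antibody IgG1, the antibody to PD-1 (anti-PD-1), doxorubicin with IgG1 (DOX/IgG1) or doxorubicin with anti-PD-1 (DOX/anti-PD-1). Doxorubicin, an anthracycline, was given at 5 mg/kg each week for 5 weeks. Groups without doxorubicin began treatment when tumors measured 0.6 cm across, with a first antibody dose of 20 mg/kg and later doses of 10 mg/kg, given closer together and over fewer weeks. The doxorubicin groups began at 1 cm with antibody doses of 10 mg/kg throughout. Doxorubicin, start size, first antibody dose, dosing schedule and length of treatment therefore cannot be told apart.

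NRF2 is held in the cytoplasm and marked for degradation by KEAP1, and oxidants or electrophiles release it to switch on genes for glutathione synthesis, thioredoxin reduction, detoxification and heme breakdown. Anthracyclines can cycle between quinone and semiquinone forms and so give rise to reactive oxygen species. Tumor cells, macrophages and other cells of a tumor all use these genes.

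Values are given in TPM, a transcript abundance scaled for gene length, and differences as log2 fold changes of TPM + 1, a scale that understates differences of genes with low values. Sequencing depth is unknown, since no read counts are in the files. In bulk tumors fewer cells of a type and less RNA per cell cannot be told apart. Mammary tumor epithelium markers were above 0 in all tumors (8 of 8 genes, with Epcam the most abundant on average at 418 to 954 TPM).

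DOX/IgG1 replicate 1 stood apart from the other tumors. Its median correlation with the other tumors across all genes was 0.940, the lowest of the 12, and its 13856 genes above 0 were the fewest. All 6 erythroid markers followed were above 0 in it, with a summed level of 2349 TPM (Hbb-bs at 1009.8 TPM) against 41.9 to 297 TPM in the other 11 tumors. The glutathione hydrolase gene Ggt1, the microsomal transferase gene Mgst3 and the carbonyl reductase gene Cbr3 were listed at 0 in it and above 0 in every other tumor, and are named after their values were seen. Its column header, alone among the 12, carries the word test, and what this marks is not given in the sources.

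No member passed the test in any of the 6 comparisons, which used limma with an adjusted p under 0.1 and an absolute log2 fold change above 1. For DOX/IgG1 against IgG1, which asked what doxorubicin did without PD-1 blockade, limma called 0 of 8 members tested beside 0.0360% of all genes (5 of 13874), and 1 member and 1073 genes had an unadjusted p under 0.05. In the same comparison 1 member, Gclc, had groups that did not overlap, beside 14.0% of all genes. For DOX/anti-PD-1 against anti-PD-1, which asked the same under PD-1 blockade, limma called 0 of 9 members beside 0% of all genes (0 of 13736), and 0 members and 1185 genes had an unadjusted p under 0.05. There 0 members had groups that did not overlap, beside 14.9% of all genes.

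For anti-PD-1 against IgG1, which asked what PD-1 blockade did alone, limma called 0 of 8 members beside 0% of 13692 genes, with 0 members and 630 genes at an unadjusted p under 0.05, and 0 members had separate groups beside 9.88% of all genes. For DOX/anti-PD-1 against DOX/IgG1, which asked what PD-1 blockade added to doxorubicin, limma called 0 of 9 members beside 0% of 13946 genes, with 1 member and 655 genes at an unadjusted p under 0.05. There 2 members, Nfe2l2 and Txnrd1, had separate groups beside 10.2% of all genes.

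Over both antibodies, doxorubicin gave 0 of 10 members called by limma beside 0.0882% of all genes (13 of 14735), and 1 member and 1751 genes had an unadjusted p under 0.05. In that comparison 0 members had groups that did not overlap, beside 0.719% of all genes. In the test of whether the doxorubicin difference depended on the antibody, limma called 0 of 10 members beside 0.00679% of all genes (1 of 14735), and 0 members and 694 genes had an unadjusted p under 0.05. Leaving out single tumors moved the count of all genes called between 0 and 122 for DOX/IgG1 versus IgG1 and between 0 and 301 for Doxorubicin over both antibodies, with the highest counts without DOX/IgG1 replicate 1, and 0 members were called by limma in any of these fits. The pairwise comparisons share groups, so their values are set side by side and are not independent.

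Medians over the members were set beside those over all genes. Over both antibodies 7 of 10 members had a log2 fold change above 0 with doxorubicin and their median was 0.09, beside 63.3% and 0.12 over all genes tested. Without Gpx2, a choice made after seeing the data, 6 of 9 were above 0 and the median was 0.06. When the tumors were scaled by the median of ratios the all-gene median moved from 0.12 to 0.01, and the members' median to -0.02 with 5 of 10 above 0. For DOX/IgG1 against IgG1 the members' median log2 fold change was 0.17 beside 0.12 over all genes, and after scaling 0.06 beside 0.01. For DOX/anti-PD-1 against anti-PD-1 it was 0.18 beside 0.11, and after scaling 0.10 beside -0.01. The 2 antibody comparisons gave members' medians of -0.03 without doxorubicin and 0.02 with it, beside -0.03 and -0.04 over all genes. For the dependence on the antibody the members' median was -0.17 with 4 of 10 above 0, beside -0.01 over all genes, and after scaling it was -0.18 beside -0.01. Without Gpx2 it was -0.27 with 3 of 9 above 0.

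**Figure D1:**
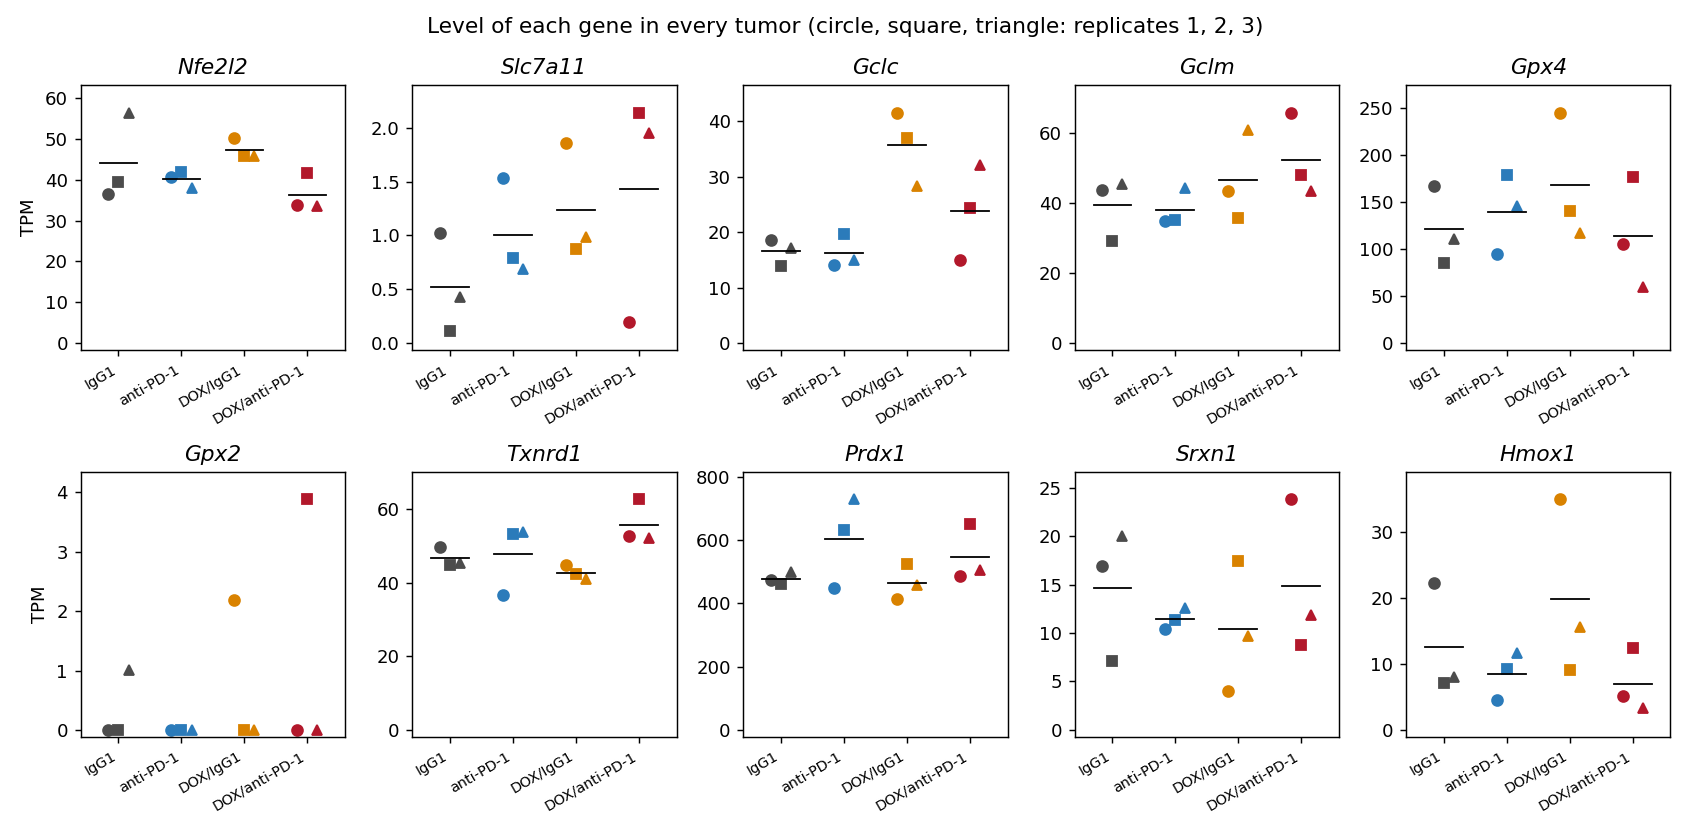
Level of each of the 10 members in TPM (vertical axes) in the 12 tumors by group, with replicates 1, 2 and 3 as circle, square and triangle and group means as black bars (no bar for Gpx2). The Gclc values of the 3 DOX/IgG1 tumors, 28.3 to 41.6 TPM, lie above all 6 tumors without doxorubicin.

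Nfe2l2 (chr2:75675513-75704641, minus strand) encodes NRF2 itself and was measured at 36.6, 39.4 and 56.4 TPM in IgG1, 40.7, 42.0 and 37.96 in anti-PD-1, 50.3, 45.7 and 45.7 in DOX/IgG1, and 33.8, 41.6 and 33.6 in DOX/anti-PD-1. The DOX/anti-PD-1 tumors all lay below the DOX/IgG1 tumors, while the other pairs of groups compared overlapped. The log2 fold change of DOX/anti-PD-1 against DOX/IgG1 was -0.38 (SE 0.23, n = 3 and 3; limma adjusted p = 0.988; exact permutation p = 0.1, the smallest that 3 against 3 tumors allow). Doxorubicin gave 0.12 with IgG1, -0.15 with anti-PD-1 and -0.01 over both antibodies (limma adjusted p = 0.983). Without single tumors the value with IgG1 ranged from 0.0020 to 0.31 and that with anti-PD-1 from -0.25 to -0.095. NRF2 is mostly controlled through its protein, which RNA levels do not measure.

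Gclc (chr9:77754535-77794485, plus strand), the catalytic subunit of the enzyme that limits glutathione synthesis, had the lowest adjusted p among the members in DOX/IgG1 against IgG1 and over both antibodies, without passing the test. It stood at 18.7, 13.9 and 17.2 TPM in IgG1, 14.1, 19.7 and 14.9 in anti-PD-1, 41.6, 37.1 and 28.3 in DOX/IgG1, and 15.0, 24.3 and 32.1 in DOX/anti-PD-1. Every DOX/IgG1 tumor and 2 of the 3 DOX/anti-PD-1 tumors exceeded all 6 tumors without doxorubicin, and DOX/anti-PD-1 replicate 1 lay among those 6. Group means were 16.6 ± 2.43 TPM in IgG1, 16.2 ± 3.06 in anti-PD-1, 35.7 ± 6.73 in DOX/IgG1 and 23.8 ± 8.53 in DOX/anti-PD-1 (SD, n = 3).

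The Gclc log2 fold change was 1.05 for DOX/IgG1 against IgG1 (SE 0.28, 95% interval 0.41 to 1.69, a 2.07-fold difference; limma adjusted p = 0.469; exact permutation p = 0.1). After scaling by the median of ratios it was 0.94, and without DOX/IgG1 replicate 1 it was also 0.94 (adjusted p = 0.253, within a range of 0.253 to 0.860 when each tumor was left out). For DOX/anti-PD-1 against anti-PD-1 it was 0.48 (SE 0.33, limma adjusted p = 0.702, exact permutation p = 0.2), with a range of 0.24 without DOX/anti-PD-1 replicate 3 to 0.76 without DOX/anti-PD-1 replicate 1. Over both antibodies Gclc differed by 0.77 (SE 0.22, 95% interval 0.30 to 1.23), with a limma adjusted p of 0.232 over all genes and an exact permutation p of 0.01, not adjusted, where 0.005 is the smallest that 400 arrangements give. The test of whether the Gclc difference depended on the antibody gave -0.57 (95% interval -1.50 to 0.36, limma adjusted p = 0.993), and -0.81 to -0.29 without single tumors.

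Gclm (chr3:122245557-122270732, plus strand), the modifier subunit that works with GCLC, ranged from 29.2 to 65.8 TPM with a median of 43.6 TPM. It was lowest in IgG1 replicate 2 and highest in DOX/anti-PD-1 replicate 1, and the groups overlapped. Over both antibodies its log2 fold change with doxorubicin was 0.33 (SE 0.19, limma adjusted p = 0.528, exact permutation p = 0.095).

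Slc7a11 (chr3:49892526-50443614, minus strand), the subunit of the cystine and glutamate exchanger that brings in cystine for glutathione, was low at 1.02, 0.11 and 0.43 TPM in IgG1, 1.53, 0.79 and 0.69 in anti-PD-1, 1.86, 0.87 and 0.99 in DOX/IgG1, and 0.20, 2.14 and 1.95 in DOX/anti-PD-1. It reached 1 TPM in 5 of 12 tumors and all groups overlapped. It was below the minimum for testing in DOX/IgG1 against IgG1 and in anti-PD-1 against IgG1. Over both antibodies the log2 fold change with doxorubicin was 0.38 (SE 0.34, limma adjusted p = 0.704).

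Gpx4 (chr10:80047166-80056439, plus strand), which reduces lipid hydroperoxides in membranes and guards against ferroptosis, was measured at 168, 84.9 and 111 TPM in IgG1, 94.9, 179 and 146 in anti-PD-1, 245, 141 and 117 in DOX/IgG1, and 105, 176 and 59.9 in DOX/anti-PD-1. DOX/IgG1 replicate 1 was the highest and DOX/anti-PD-1 replicate 3 the lowest, and all groups overlapped. Its log2 fold change was 0.45 for DOX/IgG1 against IgG1 and -0.38 for DOX/anti-PD-1 against anti-PD-1, with limma adjusted p of 0.785 and 0.799. Leaving out single tumors put the first between 0.14 (without DOX/IgG1 replicate 1) and 0.71, and the second between -0.76 and 0.01. Over both antibodies it was 0.03 (SE 0.28, limma adjusted p = 0.978), which turned to -0.09 with median of ratios scaling and to -0.01 with the listed genes rescaled to a common sum. The dependence on the antibody was -0.83 (95% interval -2.06 to 0.39, limma adjusted p = 0.993), and -1.21 to -0.44 without single tumors.

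Gpx2 (chr12:76792333-76795554, minus strand), a glutathione peroxidase best known from gut epithelium, was listed at 0 in 9 of 12 tumors. The 3 others were IgG1 replicate 3 at 1.01 TPM, DOX/IgG1 replicate 1 at 2.19 TPM and DOX/anti-PD-1 replicate 2 at 3.88 TPM. No anti-PD-1 tumor had a value above 0, so no fold is given, although Gpx2 reached the minimum over all 12 tumors and is counted among the 10 members tested there. The gene lies across Fntb, which is annotated on the other strand.

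Txnrd1 (chr10:82833951-82897712, plus strand), the cytosolic reductase that keeps thioredoxin reduced, stood at 49.8, 44.8 and 45.4 TPM in IgG1, 36.6, 53.3 and 53.7 in anti-PD-1, 44.9, 42.4 and 41.0 in DOX/IgG1, and 52.6, 62.7 and 52.1 in DOX/anti-PD-1. All DOX/anti-PD-1 tumors lay above all DOX/IgG1 tumors, and the other pairs of groups compared overlapped. The log2 fold change between them was 0.37 (SE 0.22, n = 3 and 3; limma adjusted p = 0.988; exact permutation p = 0.1). Doxorubicin gave -0.12 with IgG1 and 0.23 with anti-PD-1. Without single tumors the value with IgG1 ranged from -0.16 to -0.076 and that with anti-PD-1 from 0.055 to 0.33. Over both antibodies doxorubicin gave 0.06 (limma adjusted p = 0.922), which turned to -0.06 with median of ratios scaling. Eid3, annotated on the same strand, lies across Txnrd1.

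Prdx1 (chr4:116685544-116700822, plus strand), a peroxiredoxin that removes hydrogen peroxide with electrons from thioredoxin, was the most abundant member at 413 to 729 TPM. Its mean was above that of 99.5% of all genes, and the IgG1 tumors spanned 462 to 499.8 TPM beside 450.2 to 729 TPM in anti-PD-1. The log2 fold change for anti-PD-1 against IgG1 was 0.31 (SE 0.25, limma adjusted p = 0.996), and over both antibodies doxorubicin gave -0.08 (limma adjusted p = 0.878).

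Srxn1 (chr2:152105516-152111376, plus strand), sulfiredoxin, which repairs overoxidized peroxiredoxins, ranged from 3.97 TPM in DOX/IgG1 replicate 1 to 23.8 TPM in DOX/anti-PD-1 replicate 1. All groups overlapped. Its log2 fold change was -0.55 for DOX/IgG1 against IgG1 (-0.99 to -0.05 without single tumors, the latter without DOX/IgG1 replicate 1) and 0.23 for DOX/anti-PD-1 against anti-PD-1 (-0.15 to 0.53), with limma adjusted p of 0.834 and 0.884. Over both antibodies these opposite values gave -0.16 (SE 0.36, limma adjusted p = 0.901), and the dependence on the antibody was 0.78 (limma adjusted p = 0.993; 0.28 to 1.23 without single tumors).

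Hmox1 (chr8:75093621-75100589, plus strand), which breaks heme down to biliverdin, iron and carbon monoxide, varied most between tumors among the members above 0 in all tumors by SD on the log2 scale (0.87). It was measured at 22.2, 7.15 and 8.07 TPM in IgG1, 4.48, 9.28 and 11.6 in anti-PD-1, 34.9, 9.15 and 15.6 in DOX/IgG1, and 5.12, 12.4 and 3.27 in DOX/anti-PD-1. DOX/IgG1 replicate 1 and IgG1 replicate 1 were the highest, DOX/anti-PD-1 replicate 3 was the lowest, and the groups overlapped. Group means were 12.5 ± 8.46 TPM in IgG1, 8.46 ± 3.64 in anti-PD-1, 19.9 ± 13.4 in DOX/IgG1 and 6.92 ± 4.81 in DOX/anti-PD-1 (SD, n = 3).

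The Hmox1 log2 fold change for DOX/anti-PD-1 against DOX/IgG1 was -1.37 (SE 0.59, 95% interval -2.71 to -0.03; limma adjusted p = 0.988; exact permutation p = 0.2). Without DOX/IgG1 replicate 1 it was -0.88, and without DOX/anti-PD-1 replicate 2 it was -1.83. For DOX/IgG1 against IgG1 it was 0.61 (SE 0.56, limma adjusted p = 0.817), with 0.12 without DOX/IgG1 replicate 1 and 1.08 without IgG1 replicate 1. For DOX/anti-PD-1 against anti-PD-1 it was -0.34, and the dependence on the antibody was -0.95 (limma adjusted p = 0.993; -1.43 to -0.46 without single tumors). Over both antibodies Hmox1 gave 0.13 (limma adjusted p = 0.934), which turned to -0.11 without DOX/IgG1 replicate 1 and was 0.37 without IgG1 replicate 1. The summed erythroid markers were 260, 62.9 and 87.9 TPM in IgG1, 65.5, 44.6 and 78.5 in anti-PD-1, 2349, 189 and 41.9 in DOX/IgG1, and 131, 297 and 68.0 in DOX/anti-PD-1. Hbb-bs was the most abundant of these on average, Slc4a1 was at 0 in 8 tumors, and the tumor with the highest Hmox1 also had the highest sum. Macrophage markers (7 of 7 above 0 in every tumor, C1qa the most abundant on average) summed to 222 to 385 TPM, with 285 TPM in DOX/IgG1 replicate 1. For DOX/anti-PD-1 against DOX/IgG1, 1 of 7 macrophage markers (median log2 fold change -0.23) and 0 of 5 erythroid markers tested (median -0.90) were above 0. The share over all genes was 46.3%, with a median of -0.04. Limma called 0 of these markers there, with 0 at an unadjusted p under 0.05, beside 0 called and 4.70% of all genes. In DOX/IgG1 against IgG1, DOX/anti-PD-1 against anti-PD-1 and anti-PD-1 against IgG1, the macrophage markers above 0 were 6, 6 and 1 of 7. Their medians were 0.11, 0.25 and -0.20. Over all genes 60.6%, 60.0% and 47.2% were above 0, with medians of 0.12, 0.11 and -0.03. The erythroid markers above 0 were 4 of 5, 3 of 4 and 0 of 5 (medians 0.84, 0.69 and -1.08). Limma called 0 of these markers, beside 5, 0 and 0 of all genes. In anti-PD-1 against IgG1 1 macrophage and 2 erythroid markers had an unadjusted p under 0.05, and 0 did in the others. The shares of all genes at that limit were 7.73%, 8.63% and 4.60% in the same order. Each erythroid marker was highest in DOX/IgG1 replicate 1, with Hbb-bs at 1009.8 TPM beside 87.0 and 14.6 TPM in the other DOX/IgG1 tumors. The erythroid medians that use DOX/IgG1 were not recomputed without this tumor. The part of erythroid or macrophage RNA in the Hmox1 values was not tested.

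**Figure D2:**
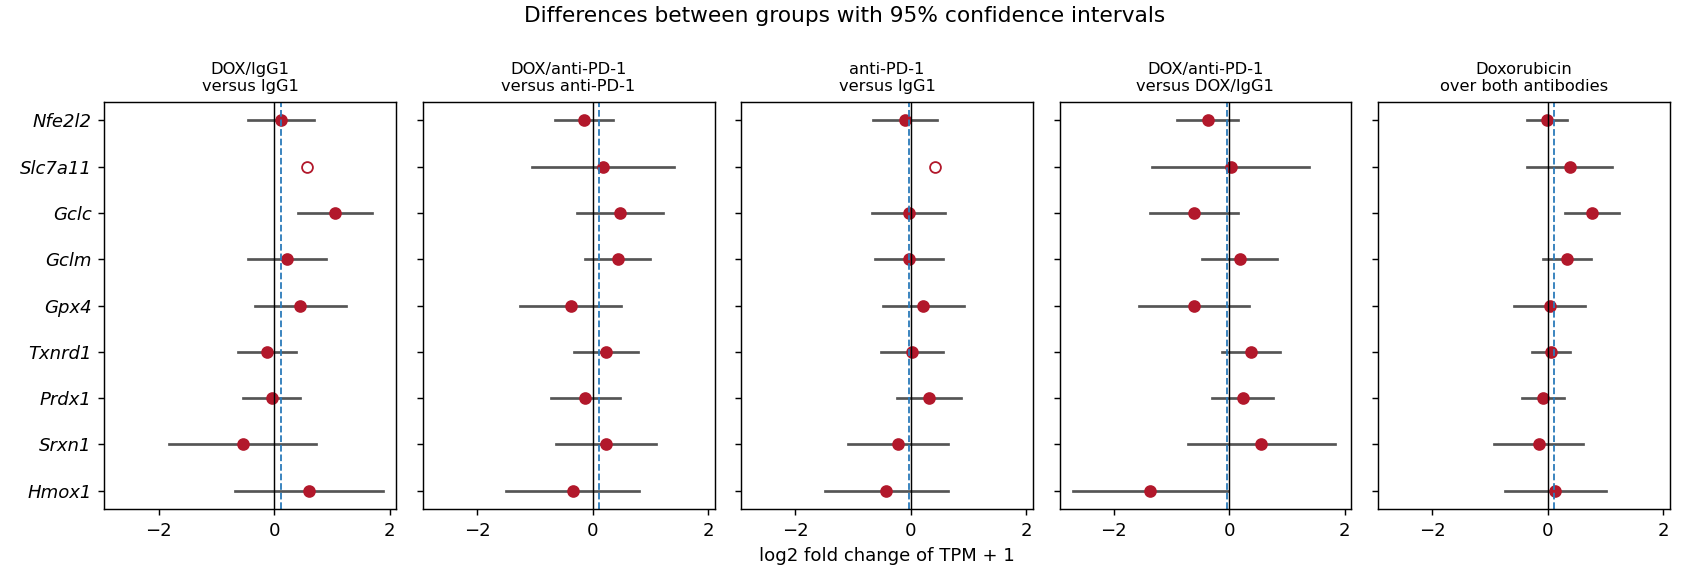
Log2 fold change (TPM + 1 scale, horizontal axis) of the members other than Gpx2 in 5 comparisons, with 95% intervals. The dashed blue line is the median over all genes tested and open circles are members below the minimum, which were not tested. The Gclc interval for DOX/IgG1 against IgG1, 0.41 to 1.69, lies above 0, and limma called 0 of 8 members beside 5 of 13874 genes there, with 1 member and 1073 genes at an unadjusted p under 0.05.

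Promoter windows were read from RefSeq (GRCm38.p6) to show what the members share in sequence. The letters searched were TGACNNNGC, the core of the antioxidant response element to which NRF2 binds with small MAF proteins, and GCNNNGTCA on the other strand. Matches were counted in the full 250 bases before each annotated start, for the members and all genes alike. Only the windows printed below were cut short where an annotated exon began. Of the 10 members 8 had an entry, and Gclc and Hmox1 had none. A match was found for 4 of these 8, beside 11.5% of 27025 genes (3112) and 10.2% of 32851 promoters (3338). The windows of those 4 are printed because the members are known for this shared element, with capitals marking the match: Nfe2l2 at chr2:75704664-75704913 (minus strand, crossing E030042O20Rik on the other strand), Gclm at chr3:122245307-122245556 (plus strand), Txnrd1 at chr10:82858956-82859178 (plus strand, inside the longest form of the gene and crossing Gm38560) and Prdx1 at chr4:116685349-116685543 (plus strand).
Nfe2l2: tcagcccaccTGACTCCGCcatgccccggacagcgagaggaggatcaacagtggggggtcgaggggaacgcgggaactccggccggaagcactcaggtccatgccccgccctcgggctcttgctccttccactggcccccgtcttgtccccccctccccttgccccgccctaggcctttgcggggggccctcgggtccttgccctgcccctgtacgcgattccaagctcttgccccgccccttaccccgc
Gclm: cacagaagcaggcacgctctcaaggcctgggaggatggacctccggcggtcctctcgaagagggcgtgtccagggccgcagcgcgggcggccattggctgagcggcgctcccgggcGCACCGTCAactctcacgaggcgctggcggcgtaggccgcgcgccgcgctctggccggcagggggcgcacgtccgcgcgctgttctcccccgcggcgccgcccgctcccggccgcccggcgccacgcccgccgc
Txnrd1: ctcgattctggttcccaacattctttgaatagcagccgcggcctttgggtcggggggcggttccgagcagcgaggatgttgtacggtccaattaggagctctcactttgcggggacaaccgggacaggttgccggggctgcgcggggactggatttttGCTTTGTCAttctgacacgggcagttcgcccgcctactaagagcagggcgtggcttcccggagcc
Prdx1: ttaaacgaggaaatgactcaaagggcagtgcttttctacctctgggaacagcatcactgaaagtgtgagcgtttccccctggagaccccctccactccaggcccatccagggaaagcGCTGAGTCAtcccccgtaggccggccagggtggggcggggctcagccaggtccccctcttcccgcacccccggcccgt
A match describes letters in these windows and is not a site of binding. Whether the members with a match differed from the others in their values was not tested.

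Pairs of members were compared across the 12 tumors on the log2(TPM + 1) scale. Of 45 pairs 32 had a positive Pearson r, with a median of 0.137, and 1 pair passed an adjusted p under 0.1. That pair was Gpx4 and Hmox1, with r = 0.846 (permutation p = 0.000590, adjusted over 45 pairs 0.0265) and Spearman rho = 0.846 (permutation p = 0.000990, adjusted 0.0445). Both genes were highest in DOX/IgG1 replicate 1 and lowest in DOX/anti-PD-1 replicate 3. These were the 2 tumors farthest from the median of Gpx4, and without them r was 0.656. Without DOX/IgG1 replicate 1 alone r was 0.774 (adjusted p = 0.243), and without DOX/anti-PD-1 replicate 3 alone it was 0.794 (adjusted p = 0.148), neither of which passed. On deviations from group means r was 0.886 with an adjusted permutation p of 0.104, and the pair that passed there was Gpx4 and Txnrd1 (r = 0.741, adjusted permutation p = 0.0694). Gpx4 and Hmox1 were followed through these alternatives because they passed, a choice made after the values were seen.

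**Figure D3:**
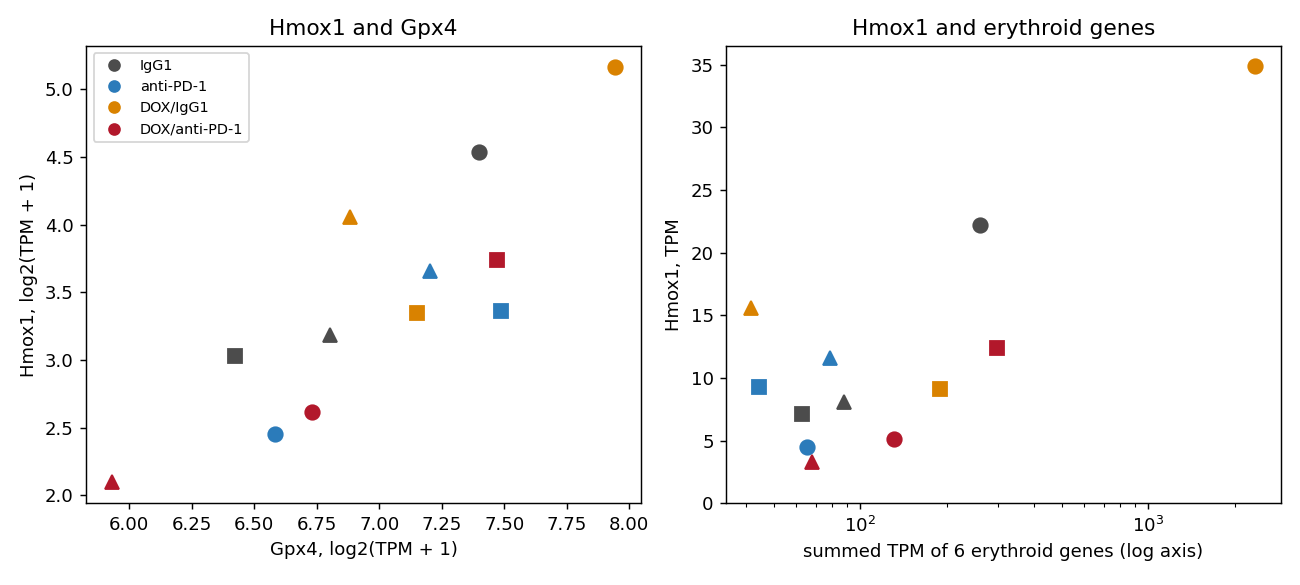
Hmox1 against Gpx4, both in log2(TPM + 1), and Hmox1 in TPM against the summed TPM of 6 erythroid genes on a log axis, in the 12 tumors, with groups by color and replicates 1, 2 and 3 as circle, square and triangle. DOX/IgG1 replicate 1 is the highest for both genes (34.9 TPM of Hmox1 and 245 TPM of Gpx4) and DOX/anti-PD-1 replicate 3 the lowest (3.27 and 59.9 TPM).

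As a description across 14734 other genes, the pattern of Hmox1 over the 12 tumors was most like those of Fetub (r = 0.919) and Dctn3 (r = 0.917). Nfe2l2 was most like Gm3055 (r = 0.928) and Polr1b (r = 0.890), and Slc7a11 most like Cdh3 (r = 0.933) and Fam83e (r = 0.866). Gpx2, above 0 in 3 tumors, was most like Nr1h4 (r = 0.894) and Epb41l4a (r = 0.887).

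A further 95 genes of the pathway were followed in 10 lists. With doxorubicin over both antibodies limma called 0 of 91 tested (smallest adjusted p 0.244) beside 13 of 14735 genes, while 15 of the 91 and 1751 of all genes had an unadjusted p under 0.05. Of the 91 genes 68 had a log2 fold change above 0, with a median of 0.21 beside 0.12 and 63.3% above 0 over all genes, and after median of ratios scaling 56 were above 0 and the medians were 0.09 and 0.01. The pairwise counts above 0 were 57 of 87 for DOX/IgG1 against IgG1, 70 of 90 for DOX/anti-PD-1 against anti-PD-1, 41 of 87 for anti-PD-1 against IgG1 and 53 of 89 for DOX/anti-PD-1 against DOX/IgG1, beside 60.6%, 60.0%, 47.2% and 46.3% of all genes. After scaling these counts were 46 of 87, 56 of 90, 46 of 87 and 56 of 89, beside 51.4%, 49.2%, 50.9% and 48.9% of all genes. Limma called 0 pathway genes in these 4 comparisons, with smallest adjusted p of 0.514, 0.479, 0.734 and 0.988, beside 5, 0, 0 and 0 of all genes. At an unadjusted p under 0.05 there were 7, 12, 5 and 4 pathway genes beside 1073, 1185, 630 and 655 of all genes. Groups did not overlap for 7, 12, 2 and 5 pathway genes that were higher and 0, 0, 11 and 3 that were lower. The shares over all genes, in either direction, were 14.0%, 14.9%, 9.88% and 10.2%. No share by direction or after scaling was computed over all genes, so the higher and lower counts have none to be set beside. The dependence on the antibody had 52 of 91 above 0 and 0 called by limma beside 1 of 14735 genes, with 2 pathway genes and 694 of all genes at an unadjusted p under 0.05. After scaling 53 of 91 were above 0.

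Among the 10 pathway lists the lowest adjusted p values over both antibodies were those of G6pdx in NADPH supply and Ephx1 in quinone detoxification, neither of which passed. G6pdx, the first enzyme of the pentose phosphate pathway, was at 30.6, 20.4 and 25.4 TPM in IgG1, 21.0, 22.7 and 26.9 in anti-PD-1, 30.1, 52.3 and 58.1 in DOX/IgG1, and 40.0, 38.2 and 29.0 in DOX/anti-PD-1. Its DOX/anti-PD-1 tumors lay above the anti-PD-1 tumors, beside 12 of 90 pathway genes and 14.9% of all genes with separate groups. DOX/IgG1 replicate 1 lay within the IgG1 range. Over both antibodies G6pdx gave 0.70 (SE 0.20, limma adjusted p = 0.244), Pgd -0.18 and Me1 0.07, and 4 of 6 genes of NADPH supply were above 0. Ephx1, the microsomal epoxide hydrolase, was at 205, 137 and 151 TPM in IgG1, 112, 111 and 135 in anti-PD-1, 463, 298 and 195 in DOX/IgG1, and 210.3, 144 and 174 in DOX/anti-PD-1. The highest value was again that of DOX/IgG1 replicate 1, and DOX/IgG1 replicate 3 lay below the highest IgG1 tumor. Ephx1 gave 0.71 (SE 0.21, limma adjusted p = 0.244), Nqo1, the quinone reductase, -0.15 and Cbr1 0.09, with 8 of 11 genes of quinone and xenobiotic detoxification above 0. The share above 0 over all genes was 63.3%.

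Glutathione genes beyond the members showed the following. Gsr, which reduces oxidized glutathione, was at 57.6, 31.7 and 26.5 TPM in IgG1, 29.2, 28.6 and 31.7 in anti-PD-1, 34.3, 57.3 and 68.5 in DOX/IgG1, and 83.6, 41.2 and 60.7 in DOX/anti-PD-1. The 3 DOX/anti-PD-1 tumors exceeded the 3 anti-PD-1 tumors, beside 12 of 90 pathway genes and 14.9% of all genes with separate groups. The DOX/IgG1 and IgG1 tumors overlapped. Over both antibodies Gsr gave 0.73 (SE 0.24, limma adjusted p = 0.281), Gss 0.24 and Slc3a2, the partner chain of SLC7A11, 0.05, with 5 of 7 genes of glutathione supply above 0. Among glutathione peroxidases and transferases 14 of 16 were above 0 with a median of 0.43, beside 63.3% and 0.12 over all genes. Limma called 0 of these 16 beside 13 of 14735 genes, and 2 had an unadjusted p under 0.05 beside 11.9% of all genes. Counts for single lists were not repeated after median of ratios scaling. Gpx1 gave 0.45 (limma adjusted p = 0.391), Gstp1 0.09 and Gpx3 0.60. Gpx3 ranged from 18.4 to 496 TPM, the highest in DOX/anti-PD-1 replicate 3, and without that tumor it gave 0.04, a setting added after seeing the data.

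Among thioredoxins and peroxiredoxins 11 of 14 genes were above 0 over both antibodies, beside 63.3% of all genes. Txnip, which binds thioredoxin, was at 0.85 (SE 0.32, limma adjusted p = 0.329), Txn1 at 0.09 and Prdx2 at 0.07. Prdx6, a peroxiredoxin that acts on phospholipid peroxides, stood at 87.9, 82.8 and 70.0 TPM in IgG1, 60.8, 83.4 and 91.6 in anti-PD-1, 55.2, 174 and 189 in DOX/IgG1, and 153, 132 and 136 in DOX/anti-PD-1. In 5 of the 6 doxorubicin tumors it exceeded all tumors without doxorubicin, and DOX/IgG1 replicate 1 was the lowest of the 12. Without that tumor, where pathway genes were counted after seeing the data, all genes called went from 13 to 301 over both antibodies and from 5 to 122 for DOX/IgG1 against IgG1, and members called stayed at 0. Without it Prdx6 was called at 1.01 (limma adjusted p = 0.0132), the drug and nucleotide exporter Abcc4 at 1.45 (limma adjusted p = 0.0570) and Txnip at 1.11 (limma adjusted p = 0.0706) over both antibodies. With all 12 tumors Prdx6 gave 0.73 (limma adjusted p = 0.312) and Abcc4 1.15 (limma adjusted p = 0.279). For DOX/IgG1 against IgG1 without it Prdx6 was called at 1.17 and the transferrin receptor Tfrc at -1.51, both with a limma adjusted p of 0.0996. With all 6 tumors of that comparison Prdx6 gave 0.61 (limma adjusted p = 0.775; 0.29 without DOX/IgG1 replicate 3) and Tfrc -1.13 (limma adjusted p = 0.533). Prdx6, Abcc4 and Tfrc are named after their values were seen.

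Counts of the remaining lists over both antibodies stand beside 63.3% of all genes above 0. The NRF2 regulators had 7 of 11 genes above 0, with the NRF2 inhibitor Keap1 at 0.38 (limma adjusted p = 0.542), the repressor Bach1 at -0.01 and the NRF2 partner Mafg at 0.05. Superoxide dismutases and catalase had 3 of 4 above 0, with Sod1 at -0.02, Sod2 at 0.21 and Cat at 0.35 (limma adjusted p = 0.424). Heme and iron handling had 7 of 8 above 0, with the ferritin chains Fth1 at 0.35 and Ftl1 at 0.00 and the biliverdin reductase Blvrb at 0.17. Lipid peroxidation and ferroptosis genes had 4 of 6 above 0, with Acsl4 at -0.23, Aifm2 at 0.11 and Lpcat3 at 0.21, and NADPH oxidases and other oxidant sources had 5 of 8, with Cybb at 0.04, Cyba at -0.00 and Xdh at -0.08. Leaving out single tumors changed the sign of Bach1, Mafg, Slc3a2, Gstp1, Prdx2, Sod1, Nqo1, Ftl1, Blvrb, Me1, Aifm2, Cybb, Cyba and Xdh over both antibodies.

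Acsl4 and Lpcat3, which load polyunsaturated fatty acids into phospholipids, did not pass the test for either antibody comparison. Acsl4 was at 73.6, 100.2 and 81.5 TPM in IgG1, 139, 122 and 123 in anti-PD-1, 57.6, 74.7 and 79.1 in DOX/IgG1, and 107, 122 and 106 in DOX/anti-PD-1. Its anti-PD-1 tumors lay above their IgG1 counterparts with and without doxorubicin, beside 10.2% and 9.88% of all genes with separate groups in either direction. The log2 fold changes were 0.59 without doxorubicin (limma adjusted p = 0.996) and 0.67 with it (limma adjusted p = 0.988). Lpcat3 was at 57, 55.5 and 52.8 TPM in IgG1 and 25.5, 31.7 and 21.3 TPM in anti-PD-1, groups that did not overlap, with a log2 fold change of -1.06 (SE 0.24, limma adjusted p = 0.734), and its values overlapped between the doxorubicin groups.

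**Figure D4:**
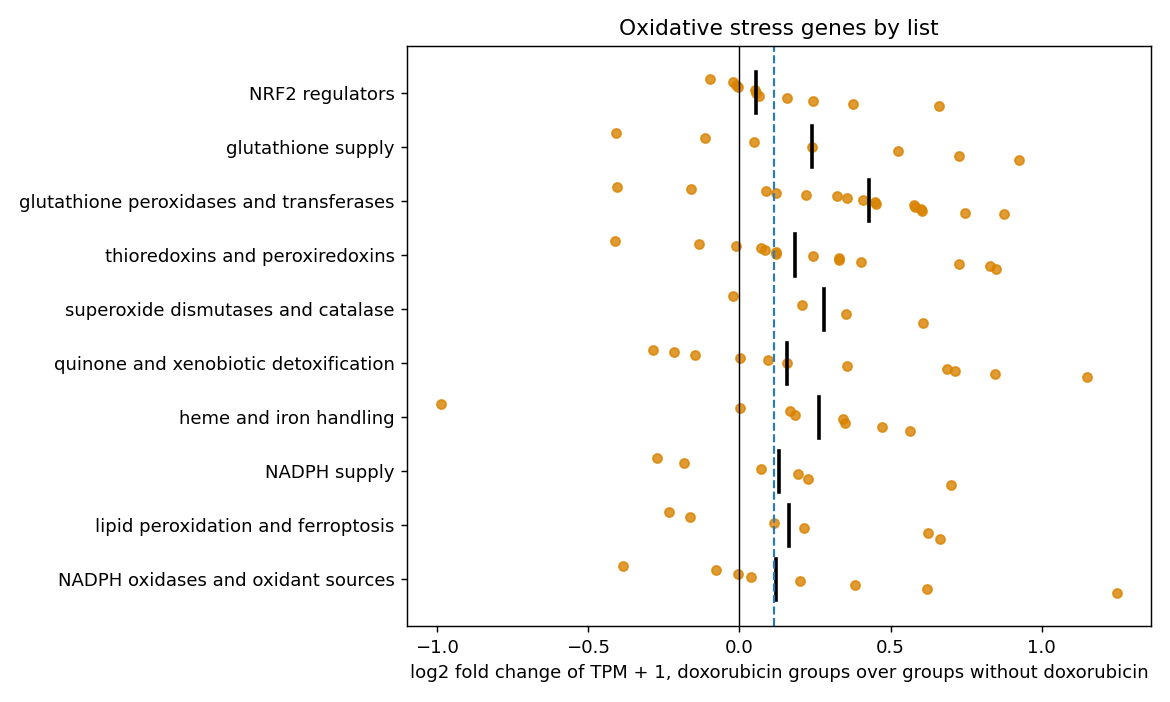
Log2 fold change (TPM + 1 scale) of each tested pathway gene with doxorubicin over both antibodies, by list, with black ticks at list medians and the all-gene median as a dashed blue line. Of the 91 genes 68 lie above 0 (56 after median of ratios scaling), and limma called 0 of them beside 13 of 14735 genes, with 15 of them and 1751 of all genes at an unadjusted p under 0.05.

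Markers of other tissues differed between tumors. Summed levels ranged from 2309 to 3911 TPM for mammary tumor epithelium, 353 to 1435 TPM for fibroblasts, 36.1 to 476 TPM for adipocytes, 62.4 to 138 TPM for endothelium, 1.03 to 40.0 TPM for T and NK cells and 0.94 to 13.8 TPM for neutrophils. In the order DOX/IgG1 against IgG1, DOX/anti-PD-1 against anti-PD-1, anti-PD-1 against IgG1 and DOX/anti-PD-1 against DOX/IgG1, the adipocyte markers above 0 were 4, 5, 0 and 4 of 5 (median log2 fold changes 0.31, 1.47, -0.83 and 0.58). The fibroblast markers above 0 were 3, 5, 0 and 3 of 5 (0.46, 0.77, -0.10 and 0.02) and the epithelial markers 1, 4, 0 and 4 of 8 (-0.28, 0.03, -0.25 and 0.08), beside 60.6%, 60.0%, 47.2% and 46.3% of all genes. Limma called 0 of these markers in any comparison. At an unadjusted p under 0.05 there were 0, 4, 0 and 0 adipocyte, 1, 4, 1 and 0 fibroblast and 1, 1, 1 and 0 epithelial markers, beside 7.73%, 8.63%, 4.60% and 4.70% of all genes. The fibroblast marker of DOX/IgG1 against IgG1 was Col1a1, named after its values were seen, which was lower at -1.20 (limma adjusted p = 0.494) against the list's median. The epithelial marker of that comparison was Epcam, also named after its values were seen. Epcam was lower at -0.87 (limma adjusted p = 0.469) with groups that did not overlap, beside 14.0% of all genes.

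With doxorubicin over both antibodies the markers above 0 were 2 of 8 for epithelium (median -0.13), 7 of 7 for macrophages (0.17), 4 of 5 for erythroid cells (1.13), 5 of 5 for adipocytes (0.97) and 4 of 5 for fibroblasts (0.28). They were 3 of 4 for endothelium (0.17), 5 of 5 for T and NK cells (0.37), 1 of 3 for neutrophils (-0.07) and 3 of 5 for skeletal muscle (0.12), beside 63.3% and 0.12 over all genes. Limma called 0 of these, beside 13 of 14735 genes. An unadjusted p under 0.05 was found for 1 marker each of epithelium, adipocytes, fibroblasts and endothelium, beside 11.9% of all genes. Each erythroid marker was highest in DOX/IgG1 replicate 1, and the erythroid median was not recomputed without that tumor. The part of these cell types in the values of the members and pathway genes was not tested.

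Skeletal muscle markers ranged from 0 TPM, with all 5 genes at 0 in DOX/anti-PD-1 replicate 2, to 669 TPM in DOX/anti-PD-1 replicate 1. Salivary gland markers summed to 60.1, 74.4 and 104.6 TPM in DOX/IgG1, the group with the highest Gclc, against 4.85 to 21.8 TPM elsewhere (Amy1 the most abundant on average), and Bpifa2 was above 0 in those 3 tumors alone. For DOX/IgG1 against IgG1 limma called 2 of 3 salivary markers tested, Bpifa2 and Smr3a, both higher with an adjusted p of 0.0334, beside 5 of 13874 genes. These calls passed in 7 and 6 of 13 alternatives, tried after seeing the data. Both genes were at 0 in all 3 IgG1 tumors. They reached the minimum there through DOX/IgG1 alone, which fixed the direction of the calls. Over both antibodies Bpifa2 was called (limma adjusted p = 0.0446), and it passed in 14 of 18 alternatives. It again reached the minimum through DOX/IgG1 alone. The part of the salivary markers in the Gclc values was not tested.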

How the data were processed

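The deposited files give log2(TPM + 1) for each gene and tumor, as the authors made it from reads aligned with STAR to mm10 and quantified with RSEM. The values, written with decimal commas, were converted back to TPM. The 12 tumors were compared with limma 3.58.1 (R 4.3.3, lmFit and eBayes with a trend) on log2(TPM + 1), two-sided, for genes at 1 TPM or more in at least 3 tumors of the fit, with Benjamini-Hochberg adjustment over all genes tested. Each pairwise fit used its 6 tumors, the other fits all 12. Single members were also given an exact permutation test, two-sided. Correlations used 100000 resamples, or exact within-group permutations for deviations from group means, a detail settled during the work. Named were all 10 members, the first 3 genes of each pathway list that reached the minimum, any pathway gene called, and the 2 genes most like each of Hmox1, Nfe2l2, Slc7a11 and Gpx2. Markers and any other gene were named after their values were seen. The members and lists were chosen with earlier results of these data known. The fit was tested on simulated data, and no value given here comes from that test. The alternatives tried are given in the closing section. Muc19 is in no file, and 1 planned marker of another list was left out.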

Additional observations from a re-analysis of the deposited data

Results flagged for a closer look

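Bpifa2, a salivary gland gene among the markers followed, was the 1 listed gene whose doxorubicin difference depended on the antibody by limma's test (adjusted p = 0.0909). It was measured at 14.4, 21.3 and 53.7 TPM in the 3 DOX/IgG1 tumors and listed at 0 in the other 9, so no fold is given. It therefore reached the minimum for testing through DOX/IgG1 alone, and the other groups had no spread. The adjusted p by limma was 0.0455 with no minimum, and it passed in 4 of 18 alternatives, tried after seeing the data (adjusted p from 0.0240 to 0.991). No member or pathway gene met this condition. Whether salivary tissue was present was not tested.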

How the results depend on the processing

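Members called stayed at 0 under each alternative tried in all 6 comparisons, and so did pathway genes called, except without DOX/IgG1 replicate 1 (2 for DOX/IgG1 versus IgG1 and 3 for Doxorubicin over both antibodies, ranges over single tumors 0 to 2 and 0 to 3). Gclc kept its direction in DOX/IgG1 versus IgG1 and in Doxorubicin over both antibodies under each alternative and passed the test in none. The cause of the differences below was not tested. For all genes called in DOX/IgG1 versus IgG1 (5), the count was 2 with 1 TPM in every tumor, 13 with no trend, 2 with a replicate block, and 0 to 122 without single tumors. In DOX/anti-PD-1 versus anti-PD-1 (0) it was 3 with no trend and 0 to 4 without single tumors. In anti-PD-1 versus IgG1 (0) it was 1 with no trend and 0 to 4 without single tumors. In DOX/anti-PD-1 versus DOX/IgG1 (0) it was 3 with median of ratios scaling, 3 with listed genes rescaled to a common sum, 3 with no trend, 2 with all 12 tumors in one fit, and 0 to 4 without single tumors. In Doxorubicin over both antibodies (13) it was 6 with a pseudocount of 0.1 and 0 to 301 without single tumors. In the test of dependence on the antibody (1) it was 0 with a pseudocount of 0.1, with 1 TPM in every tumor, with median of ratios scaling and with a replicate block, 3 with no minimum, 3 with no trend, and 0 to 1 without single tumors. Counts under the other alternatives were within 1.5 times these. Replicate numbers name no shared mouse: tumors of the same number in different groups had correlations of their deviations from group means of -0.096 to 0.134.

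Members' log2 fold changes that changed sign were small or rested on 1 tumor. With median of ratios scaling Gclm was 0.0016 in anti-PD-1 versus IgG1, and Gpx4 was -0.087 and Txnrd1 -0.065 in Doxorubicin over both antibodies. With listed genes rescaled to a common sum Gpx4 was -0.0098 in the latter. With a pseudocount of 0.1 Slc7a11 was -0.20 in DOX/anti-PD-1 versus DOX/IgG1. Without single tumors Prdx1 ranged from -0.14 to 0.038 in DOX/IgG1 versus IgG1. In DOX/anti-PD-1 versus anti-PD-1 Slc7a11 ranged from -0.067 to 0.63, Gpx4 from -0.76 to 0.0088, Prdx1 from -0.32 to 0.027, Srxn1 from -0.15 to 0.53 and Hmox1 from -0.80 to 0.020. In anti-PD-1 versus IgG1 Nfe2l2 ranged from -0.23 to 0.079, Gclc from -0.18 to 0.055, Gclm from -0.23 to 0.081, Gpx4 from -0.0085 to 0.48, Txnrd1 from -0.076 to 0.20, Srxn1 from -0.65 to 0.041 and Hmox1 from -0.70 to 0.054. In DOX/anti-PD-1 versus DOX/IgG1 Slc7a11 ranged from -0.23 to 0.47. In Doxorubicin over both antibodies Nfe2l2 ranged from -0.073 to 0.080, Gpx4 from -0.16 to 0.23, Txnrd1 from -0.034 to 0.10, Srxn1 from -0.38 to 0.094 and Hmox1 from -0.11 to 0.37. In the same comparison the pathway genes named were also followed without single tumors, a setting added after seeing the data. Bach1 ranged from -0.10 to 0.080, Mafg from -0.18 to 0.26, Slc3a2 from -0.039 to 0.20, Gstp1 from -0.11 to 0.30, Prdx2 from -0.068 to 0.18, Sod1 from -0.16 to 0.082 and Nqo1 from -0.37 to 0.019. Ftl1 ranged from -0.086 to 0.092, Blvrb from -0.066 to 0.45, Me1 from -0.10 to 0.22, Aifm2 from -0.043 to 0.32, Cybb from -0.10 to 0.31, Cyba from -0.15 to 0.16 and Xdh from -0.22 to 0.016. Some values other than that of Gpx2, given below, kept their sign there and moved over 1.5 times. These were Slc7a11 (0.26 to 0.60), Prdx1 (-0.18 to -0.0094), Gss (0.063 to 0.43), Gpx1 (0.28 to 0.56) and Gpx3 (0.041 to 0.93). Also among these were Txn1 (0.017 to 0.16), Sod2 (0.12 to 0.26), Cbr1 (0.0088 to 0.19) and Fth1 (0.21 to 0.52). Pgd (-0.27 to -0.11) and Lpcat3 (0.019 to 0.38) moved so too. In anti-PD-1 versus IgG1 Prdx1 also moved so (0.16 to 0.51). In the interaction Slc7a11 ranged from -0.64 to 0.050 and Prdx1 from -0.28 to 0.072. For Correlation between members, the pairs that passed were 0 to 1 without single tumors, settings added after seeing the data, as was the count of pathway genes. Gpx2 has no fold where a group is at 0 in each tumor. Its difference on the TPM + 1 scale changed sign in the interaction without DOX/anti-PD-1 replicate 2 (-0.22, with 1.10 at the highest). In Doxorubicin over both antibodies the Gpx2 difference on that scale was 0.49, and it ranged from 0.11 to 0.68 without single tumors.

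In a pairwise comparison of 3 against 3 tumors an exact permutation p cannot go below 0.1. Depth is unknown and limits what can be said of Slc7a11 and Gpx2, which are near or at 0. The column headers of the DOX/anti-PD-1 files carry another suffix than those of the other groups, and what it marks cannot be told apart from the treatment. The header of DOX/IgG1 replicate 1 alone carries the word test.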
